A study of Mus musculus with 7 samples.

Results

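The 10 genes described here are known for their expression in the choroid plexus: *Ttr*, *Folr1*, *Prlr*, *Kcnj13*, *Clic6*, *Otx2*, *Aqp1*, *Enpp2*, *Kl* and *Slc4a5*. They were found by Ensembl identifier among the 38124 genes of the count table, and all 10 were present. They were chosen because several of them had higher counts in the libraries labelled Sox9 than in the Control libraries, so the difference between these groups is described for them and is not tested. The choroid plexus is a folded epithelium in the brain ventricles that secretes cerebrospinal fluid and carries hormones, vitamins and ions between blood and fluid. In the telencephalon it arises at the dorsal midline, next to the cortical hem, under the influence of BMP signals, and it is not a part of the neocortex. Its epithelial cells are known for very abundant transthyretin mRNA, for ion channels and transporters on the face toward the fluid, and, once mature, for multiple cilia.

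RNA-Seq was performed on cells from the neocortex of heterozygous *Tis21*-CreERT2 mouse embryos, in which the Cre recombinase is made by progenitors that give rise to basal progenitors (BPs) and by the BPs themselves. Both groups received tamoxifen, were electroporated in utero at E13.5 and were collected at E15.5, that is 48 hr later, when cells with high RFP were sorted by FACS. In the 3 Control libraries (replicates 1, 2 and 4 in the titles) the construct expressed a membrane GFP that Cre removes to allow a nuclear RFP. In the 4 libraries labelled Sox9 (replicates 1 to 4) the construct also carried the *Sox9* coding sequence before the RFP, under the same CAGGS promoter. The methods describe pooled cortices for sorting and the legends speak of 1 neocortex per library, so where tests are given they measure the spread between these libraries. *Sox9* mRNA itself, the check of the labels, had 362, 1026 and 668 counts in Control replicates 1, 2 and 4, and 370, 435, 277 and 177 counts in Sox9 replicates 1 to 4. Scaled to CPM (counts relative to TMM-normalised library size), these were 34.6, 89.2 and 67.9 against 50.8, 41.1, 31.0 and 37.1, so the libraries labelled Sox9 did not have more *Sox9* mRNA, and group names refer to labels throughout. Whether transcripts of the construct entered the counts of the gene was not tested. Other genes, chosen after their values were seen, did separate the groups: *Eomes*, the BP transcription factor Tbr2, had a log2 fold change of -2.25 (edgeR adjusted p 4.9e-05), and *Olig2*, a factor of the oligodendrocyte lineage, one of 4.44 (edgeR adjusted p 0.0037). Total counts were between 10465562 and 12907778 in the Control libraries and between 4429704 and 10520214 in the libraries labelled Sox9.

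The gene with the largest counts was *Enpp2*, which encodes autotaxin, the secreted enzyme that makes lysophosphatidic acid. It had 78, 77 and 68 counts in Control replicates 1, 2 and 4, and 918, 889, 248 and 549 counts in Sox9 replicates 1 to 4. The 3 Control libraries were close to each other, and each of the libraries labelled Sox9 was above them, replicate 3 by the least. The CPM of *Enpp2* averaged 7.02 ± 0.393 over the Control libraries (SD, n = 3) and 88.2 ± 44.1 over those labelled Sox9 (SD, n = 4), a log2 fold change of 3.64 with a standard error of 0.40. *Enpp2* lies on the minus strand of chromosome 15 of mm10, bases 54838901 to 54952892. In a bulk library, more cells that express a gene and more mRNA per cell cannot be told apart. The range of this log2 fold change over 14 alternative settings and left-out libraries was 3.29 to 3.97.

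*Ttr*, the gene of transthyretin and the most widely used marker of this epithelium, had 1, 6 and 1 counts in the Control libraries. It had 54, 53, 14 and 23 counts in Sox9 replicates 1 to 4, so that the groups did not overlap although 3 of the 4 libraries labelled Sox9 had fewer total counts than every Control library. Its mean CPM was 0.240 ± 0.244 for Control (SD, n = 3) and 4.70 ± 2.40 for the Sox9 label (SD, n = 4), and the log2 fold change was 4.16 with a standard error of 0.68. The summed counts, scaled by summed library sizes, gave a ratio of 18.1 with an exact 95% interval of 8.96 to 42.8. This and the other intervals cover counting error only and not the spread between libraries. They take the reads as independent. Since the cDNA was amplified and the reads carry no molecular identifiers, they may be too narrow. Most of the Control counts were in replicate 2, and without that library the log2 fold change of *Ttr* was 5.37.

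Of the channels and transporters, *Kcnj13*, an inward rectifier potassium channel of the face toward the fluid, had 3, 8 and 10 Control counts and 33, 27, 14 and 10 counts in Sox9 replicates 1 to 4. The raw counts of the groups met at 10, whereas the CPM did not overlap, being 0.287 to 1.02 against 1.57 to 4.53. *Slc4a5*, a sodium bicarbonate cotransporter, had 5, 8 and 2 counts against 12, 11, 16 and 9, with the lowest library labelled Sox9 only 1 count above the highest Control library. *Clic6*, a member of the chloride intracellular channel family, had 0, 3 and 1 counts against 8, 4, 14 and 2, and its raw counts overlapped while its CPM did not. *Aqp1*, the water channel of this epithelium, had 2, 0 and 0 counts in Control replicates 1, 2 and 4 and 0, 1, 0 and 2 counts in those labelled Sox9. Its groups overlapped, its ratio of 1.51 had an interval of 0.173 to 18.1, and no difference was detectable at this depth. The ratios were 4.03 (2.47 to 6.84) for *Kcnj13*, 3.22 (1.77 to 6.2) for *Slc4a5* and 7.05 (2.47 to 27.7) for *Clic6*.

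Of the receptors, *Prlr*, the prolactin receptor, had the most counts. They were 54, 38 and 53 in Control and 153, 142, 162 and 61 in Sox9 replicates 1 to 4, the last of these being the shallowest library. Its CPM was 4.62 ± 1.15 (SD, n = 3) against 16.3 ± 3.92 (SD, n = 4), with no overlap and a log2 fold change of 1.83 (standard error 0.27) that ranged from 1.63 to 1.98 over 14 settings. *Folr1*, the folate receptor that carries folate into the fluid, had 1, 3 and 4 Control counts and 14, 13, 27 and 20 counts in those labelled Sox9. Each of the latter was above every Control library, and the log2 fold change was 3.25 (standard error 0.64). *Kl*, the gene of klotho, a co-receptor for FGF23 that is also shed into the fluid, had 8, 0 and 8 counts against 21, 23, 25 and 10. The groups of *Kl* did not overlap in raw counts, and its log2 fold change of 2.25 (standard error 0.65) was 1.65 without Control replicate 2, the library in which it had no count.

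*Otx2*, the homeobox transcription factor required for the choroid plexus to form and to be maintained, had 1, 6 and 0 counts in Control replicates 1, 2 and 4 and 5, 3, 12 and 10 counts in those labelled Sox9. Control replicate 2 lay between the libraries labelled Sox9, so the groups overlapped, and the ratio of the summed counts was 4.32 with an interval of 1.86 to 11.6. It was among the least abundant of the 10 genes, with no count in Control replicate 4 and at most 12 counts in any library.

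Promoter sequences of 300 bases, 250 before and 50 after a RefSeq start on the assembly GRCm38.p6, were examined. *Ttr* was left out of this search, and the sequences matched 6 of the other genes (*Kcnj13*, *Kl*, *Aqp1*, *Slc4a5*, *Otx2* and *Prlr*) with 11 promoters. They were searched on both strands for TAATCC, a core letter set known for OTX proteins, for AACAAT, known for SOX proteins, and for TTCNNNGAA, known for STAT5, the factor that signals from the prolactin receptor. The 3 sets were present in 7.06%, 10.7% and 8.3% of 32851 promoters of this length. Of the 11 promoters, 1 held the OTX letters, 0 held the SOX letters and 2 held the STAT5 letters. Both matches of an *Otx2* promoter on the minus strand, beginning at positions -211 and -113 from its start, and the match of a *Prlr* promoter on the plus strand, beginning at position -110, are shown with the matched letters in capitals, because *Otx2* is the transcription factor of the group and the signalling partner of *Prlr*, *Stat5a*, also differed between the groups (its counts are given with the partners). GGATTA is TAATCC read on the other strand.
Otx2, OTX letters, chr14:48665303-48665332: cgtgtgcccctcGGATTAtctcgttagttt
Otx2, STAT5 letters, chr14:48665203-48665232: gtagatgggcTTCTTGGAAgaaggggaaaa
Prlr, STAT5 letters, chr15:10223656-10223905: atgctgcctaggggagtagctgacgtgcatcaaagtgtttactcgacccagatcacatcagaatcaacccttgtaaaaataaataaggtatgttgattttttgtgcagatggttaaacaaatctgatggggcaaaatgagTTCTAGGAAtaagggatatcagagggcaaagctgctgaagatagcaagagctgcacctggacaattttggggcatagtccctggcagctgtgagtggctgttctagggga
The matches are descriptions of letters, and binding was not measured. On mm10 *Otx2* spans bases 48657677 to 48673819 of chromosome 14 on the minus strand, and *Prlr* bases 10177238 to 10349180 of chromosome 15 on the plus strand.

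**Figure D1:**
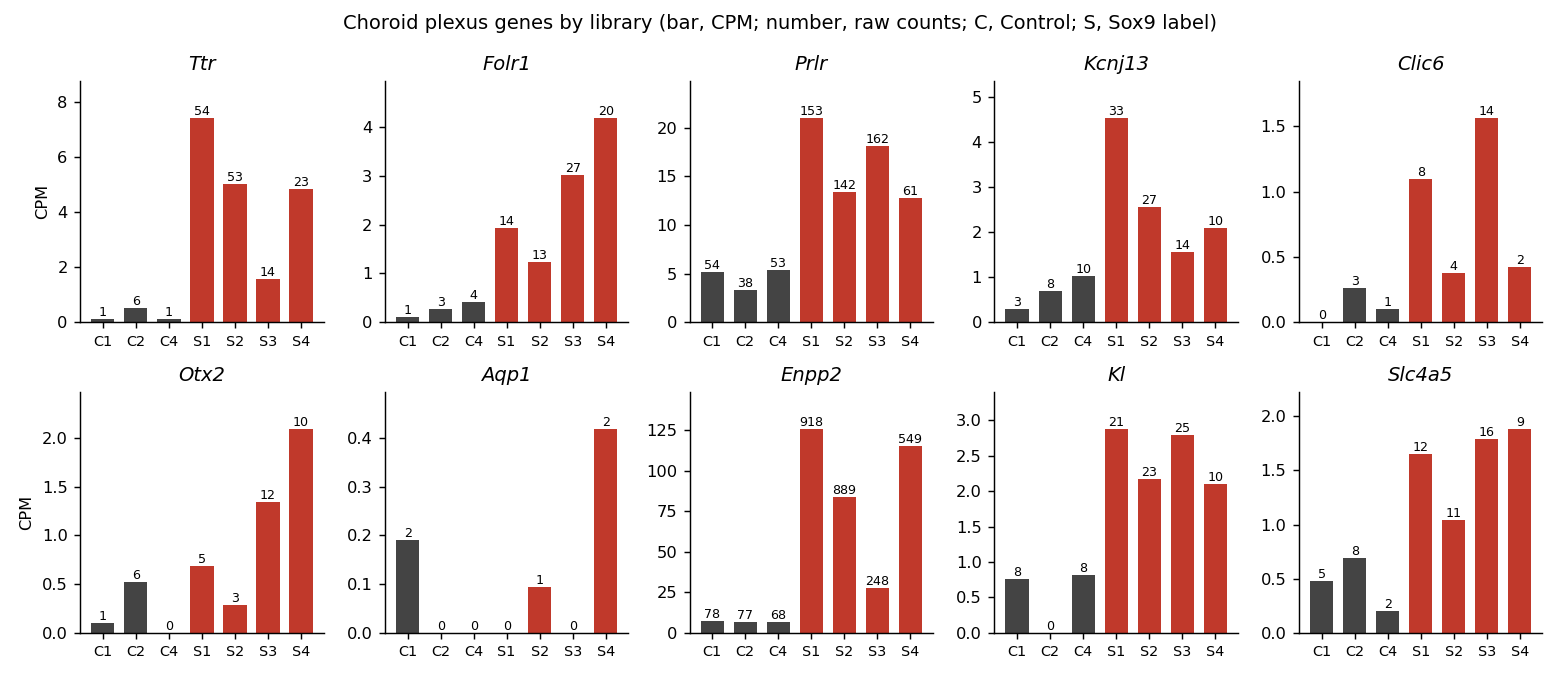
CPM (y axis, from 0, a separate scale for each gene) of the 10 choroid plexus genes in each of the 3 Control libraries (C1, C2, C4) and the 4 libraries labelled Sox9 (S1 to S4), with the raw count above each bar. *Enpp2* and *Ttr* were highest in S1 and lowest among the libraries labelled Sox9 in S3, whereas *Clic6* was highest in S3 and *Folr1* and *Otx2* in S4.

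The mean CPM was higher in the libraries labelled Sox9 for all 10 genes, as was the fitted level for 49.8% of all genes tested, and the CPM of the groups did not overlap for 8 of the 10, the exceptions being *Otx2* and *Aqp1*. Among the 16522 genes that passed the filter on low counts, the libraries labelled Sox9 lay wholly above the Control libraries for 22.9%. Nothing can be read from setting the first share against the second, because the genes were picked on this contrast and 3 of them (*Clic6*, *Otx2* and *Aqp1*) did not pass the filter. The filter asks for counts in as few libraries as the smaller group holds, so a gene seen only in the libraries labelled Sox9 can pass it. The median log2 fold change of the 7 genes that passed was 2.25, and it is given as a description of those 7 alone, beside a median of 0.00 over all genes tested. It was 2.00 without *Ttr* and *Enpp2*, an alternative chosen after the data were seen.

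The log2 fold changes of all genes varied with their level in these libraries. Below an average log2 CPM of 1 lay 3275 tested genes, whose log2 fold changes had a median of 1.55, and 675 of them were called higher against 3 called lower by edgeR's quasi-likelihood test at an adjusted p under 0.01. The median was 0.62 between 1 and 3, fell to -0.14 between 3 and 6, and was -0.26 above 6. Of the tested choroid plexus genes, *Slc4a5*, *Kl*, *Kcnj13* and *Folr1* lie below 1 and *Ttr* at 1.48. The median of all tested genes within 1 log2 CPM was 1.48 around *Slc4a5* (1.72), 1.38 around *Kl* (2.25), 1.32 around *Kcnj13* (2.00), 1.41 around *Folr1* (3.25) and 1.07 around *Ttr* (4.16). Around *Prlr* (1.83) it was -0.04 and around *Enpp2* (3.64) it was -0.21. Cyclic loess normalisation, which removes such a relation to the level, was tried with limma-trend on log2 CPM with an offset. There the log2 fold change was 3.57 for *Enpp2*, 2.20 for *Ttr* and 1.71 for *Prlr*. It was 1.15 for *Folr1*, 0.89 for *Kl*, 0.58 for *Kcnj13* and 0.07 for *Slc4a5*. The offset by itself draws the values of genes with few counts toward 0, and its part was not separated from that of the normalisation. The values of *Enpp2* and *Prlr* changed little with this choice, and that of *Slc4a5* came close to 0.

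**Figure D2:**
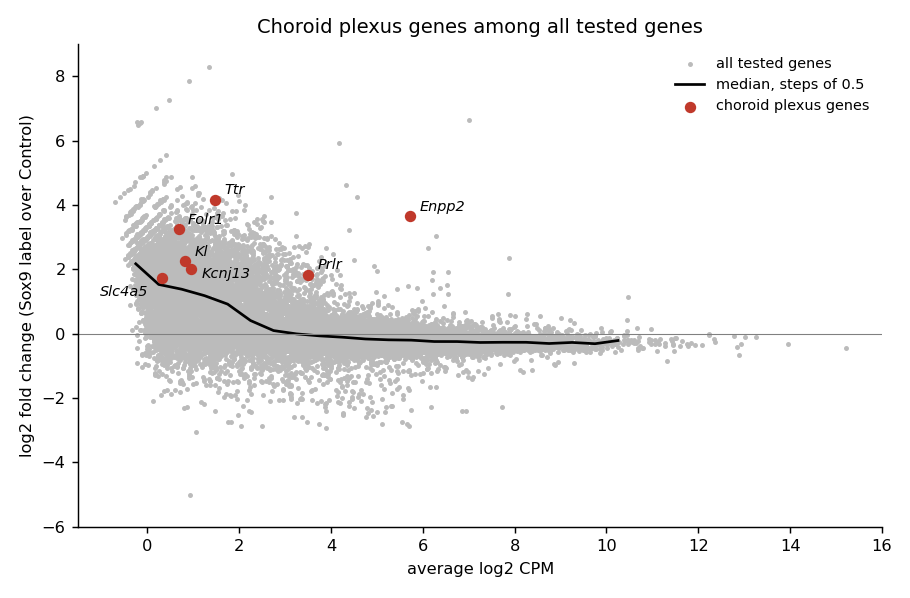
Log2 fold change of the libraries labelled Sox9 over Control (y axis) against average log2 CPM (x axis) for the 16522 tested genes (grey), with their median in steps of 0.5 (line) and the 7 tested choroid plexus genes (red). *Slc4a5* lies near the line, which is above 0 at low levels, and *Kl* and *Kcnj13* lie above it, whereas *Enpp2* and *Prlr* lie where the line is near 0.

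To set the low counts beside a measure of stray reads, the 1372 genes of chemoreceptors (receptors for odours, pheromones, tastes and trace amines, known for sensory epithelia) were summed. Per kilobase of exon their CPM was 0.0312, 0.0228 and 0.0294 in the Control libraries and 0.0898, 0.0689, 0.0969 and 0.0805 in Sox9 replicates 1 to 4, with no overlap. On the same scale *Enpp2* was 43.7 times this level in the Control libraries and 182 times in those labelled Sox9, and *Ttr* was 7.27 and 47.2 times. *Folr1* went from 3.98 to 13.4 times the chemoreceptor level. The other 7 genes differed less between the groups on this measure, with *Prlr* going from 10.8 to 12.7 times, *Kcnj13* from 18.9 to 25.2, *Clic6* from 1.11 to 2.63, *Otx2* from 1.75 to 3.11, *Kl* from 2.03 to 3.17, *Slc4a5* from 2.84 to 3.26 and *Aqp1* from 0.873 to 0.582. The ratio to the chemoreceptor genes was thus over 3 times as high in the libraries labelled Sox9 for *Enpp2*, *Ttr* and *Folr1*, and nearly the same in both groups for *Slc4a5* and *Prlr*. With the whole gene span as length, *Enpp2* was 5.31 times the chemoreceptor level in Control and 22.1 times in the libraries labelled Sox9, and *Ttr* 2.29 and 14.9 times. On that scale 7 of the genes, rather than 9 by exonic length, were above the chemoreceptor mean in the libraries labelled Sox9, and *Slc4a5* was 0.534 times it. What part reads of this kind have in the difference was not tested. Whether counting used strand is not given in the sources used here, and *Kcnj13* lies within *Gigyf2*, a gene of the opposite strand with 623 exonic bases in common and 514 to 1475 counts per library, so reads of these genes may not be separable.

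**Figure D3:**
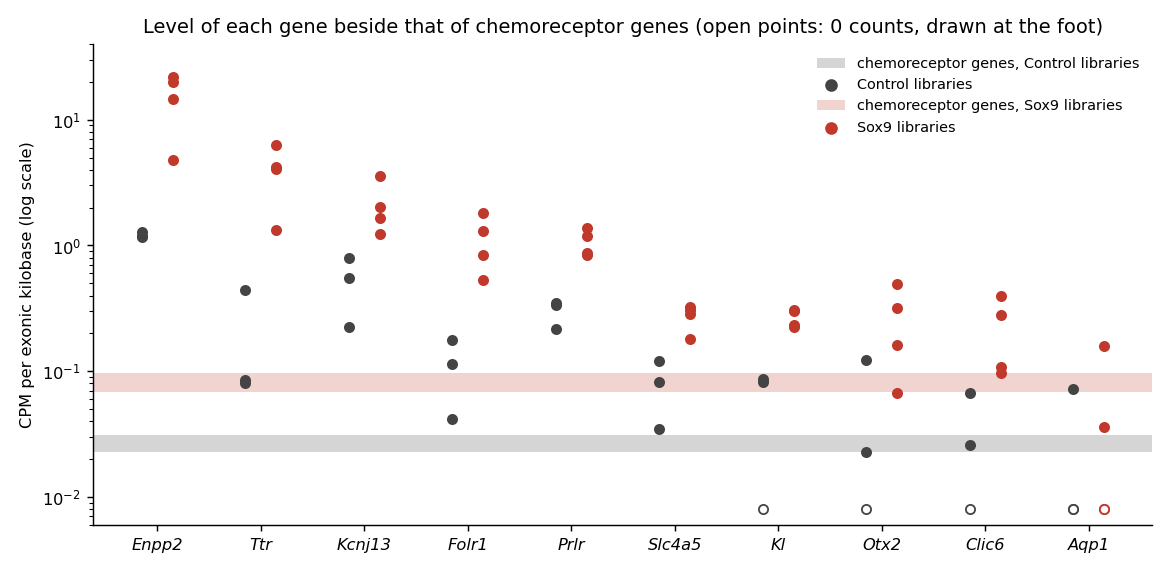
CPM per exonic kilobase (y axis, log scale) of each choroid plexus gene in the 3 Control libraries (dark points) and the 4 libraries labelled Sox9 (red points), with the range of the chemoreceptor genes in each group as bands. Open points at the foot are libraries with 0 counts. *Enpp2*, *Ttr*, *Kcnj13*, *Folr1* and *Prlr* in the libraries labelled Sox9 are clear of the upper band, while *Clic6* reaches into it and *Otx2* and *Aqp1* reach below it.

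In choroid plexus epithelium transthyretin mRNA is known to be among the most abundant of all, and the order of the levels per exonic kilobase was examined. In the Control libraries *Enpp2* was highest at 1.21 ± 0.068 CPM per exonic kilobase (SD, n = 3), followed by *Kcnj13* at 0.525, *Prlr* at 0.301, *Ttr* at 0.202, *Folr1* at 0.111, *Slc4a5* at 0.0791, *Kl* at 0.0564, *Otx2* at 0.0487, *Clic6* at 0.0309 and *Aqp1* at 0.0243. Only *Enpp2* and *Kcnj13* were neighbours in this order that did not overlap. In the libraries labelled Sox9 *Enpp2* stood at 15.3 ± 7.63 CPM per exonic kilobase (SD, n = 4), *Ttr* at 3.97, *Kcnj13* at 2.12, *Folr1* at 1.13, *Prlr* at 1.06, *Slc4a5* at 0.274, *Kl* at 0.267, *Otx2* at 0.261, *Clic6* at 0.221 and *Aqp1* at 0.0489. Here the only neighbours without overlap were *Prlr* and *Slc4a5*. *Enpp2* was above *Ttr* in each of the 7 libraries on this scale. The order depends on the length used: per kilobase of the whole gene span, *Kcnj13* (0.0796 CPM) stood above *Enpp2* (0.0616 CPM) in Control, while *Enpp2*, *Ttr*, *Kcnj13*, *Folr1* and *Prlr* kept this order in the libraries labelled Sox9.

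Whether the genes varied together from library to library was examined with each group's mean removed. For the 9 genes with at least 20 counts in all (without *Aqp1*), deviations of log2(CPM + 0.5) over the 7 libraries gave 36 pairs with a median Pearson's r of -0.08, and 15 of the pairs were above 0. The middle part of the pairs (quartiles) ran from -0.29 to 0.31. For pairs of the 11609 tested genes with an average level in the same range, the median was 0.02 and the quartiles were -0.33 and 0.37. The median for the choroid plexus genes was thus not above that of these genes. The latter share the range of levels but were not matched gene by gene, and *Clic6* and *Otx2*, which were not tested, did not set this range. These values are descriptions over 7 libraries of unequal depth, and counting error is large for the low genes.

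The pairs named next were picked after their values were seen. An r of at least 0.8, a limit also set after the values were seen, was found in 3 of the 36 pairs (8.33%) and in 3.29% of all pairs of the genes used as background. *Enpp2* and *Ttr* had an r of 0.87, *Ttr* and *Kcnj13* 0.68, and *Enpp2* and *Kcnj13* 0.57. These 3 genes were highest in Sox9 replicate 1 and lowest, of the libraries labelled Sox9, in replicate 3. *Ttr* was 7.42 CPM (exact Poisson 95% interval 5.57 to 9.68) in replicate 1 and 1.57 (0.856 to 2.63) in replicate 3. *Enpp2* was 126 (118 to 135) and 27.7 (24.4 to 31.4), so for both genes these intervals did not overlap. A second set was *Otx2*, *Slc4a5* and *Folr1*, with an r of 0.86 between *Otx2* and *Slc4a5*, 0.78 between *Otx2* and *Folr1*, and 0.42 between *Folr1* and *Slc4a5*. These 3 were highest in Sox9 replicate 4 and lowest, of the libraries labelled Sox9, in replicate 2, though for *Slc4a5* the exact Poisson intervals of these libraries overlapped (0.863 to 3.58 and 0.519 to 1.86 CPM). *Prlr* and *Kl* had an r of 0.84 and were highest in Sox9 replicate 1 and lowest, of the libraries labelled Sox9, in replicate 4, though for *Kl* the exact Poisson intervals of these libraries overlapped (1.79 to 4.41 and 1.01 to 3.86 CPM) and the library farthest from its group mean was Control replicate 2, with 0 counts. *Clic6* was highest in replicate 3, where *Enpp2* was lowest, and the r between them was -0.59. The sum of all 10 genes was 14.6, 12.9 and 15.0 CPM in the Control libraries and 167, 110, 59.5 and 146 CPM in Sox9 replicates 1 to 4. *Enpp2* made up 51.0%, 51.7% and 46.3% of this sum in the Control libraries and 75.4%, 76.2%, 46.6% and 78.9% in those labelled Sox9. Without *Enpp2* the sum was 7.17, 6.26 and 8.04 CPM against 41.2, 26.2, 31.7 and 30.8 CPM, in which replicate 3 no longer stood below the others.

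**Figure D4:**
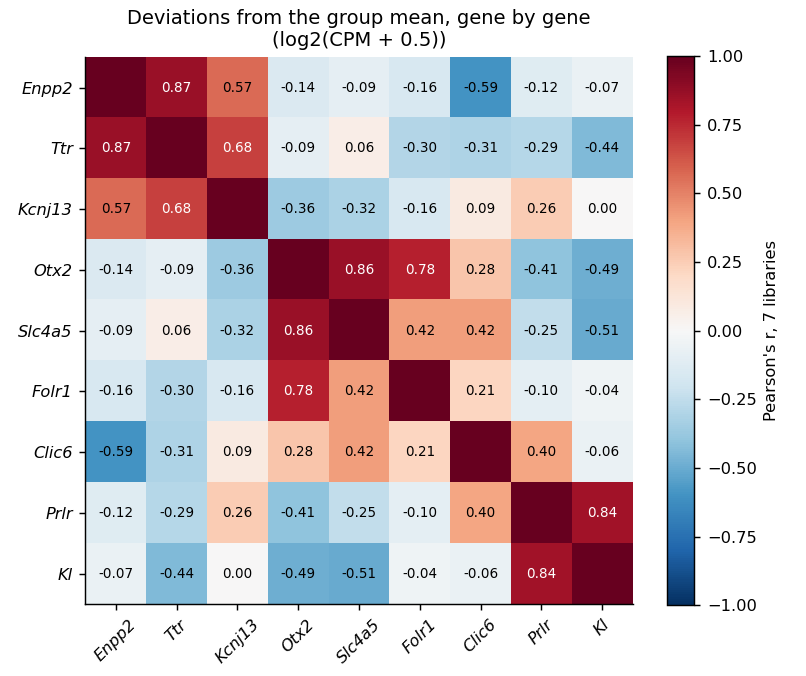
Pearson's r (colour and printed value, from -1 to 1) between the deviations of log2(CPM + 0.5) from the group mean, for each pair of the 9 choroid plexus genes with at least 20 counts in all, over 7 libraries. *Enpp2*, *Ttr* and *Kcnj13* form 1 set of positive values, *Otx2*, *Slc4a5* and *Folr1* another, and *Prlr* and *Kl* a pair, while values between the sets are mostly near or below 0.

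The genes whose deviations were most like those of the summed CPM of the group without *Ttr* were *Cox4i1* (r = 0.998), *Timm8b* (0.997), *Slc35b2* (0.997), *Gtf2h5* (0.996) and *Sdhaf4* (0.996), out of 9733 genes with a mean of at least 50 counts, measured over 7 libraries. The 10 genes themselves were left out of this search, as were genes with few counts. The absence of choroid plexus genes from these 5 therefore cannot be read as a result. Since 328 of the 9733 genes had an r of at least 0.9 with this sum, of which *Enpp2* is the largest part, the likeness is common in so few libraries. *Cox4i1* had 6273, 6296 and 5967 counts against 4250, 4982, 3233 and 2652, with a log2 fold change of -0.25.

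Other genes known for the choroid plexus were read from the fit over all genes, in which 11.3% of the tested genes passed the threshold upward and 3.43% downward (Sox9 label over Control, edgeR's quasi-likelihood test, Benjamini-Hochberg adjusted p under 0.01). Of 51 such genes, 37 were tested, 11 (29.7%) were called higher and 0 lower. At an unadjusted p under 0.05, 21 were higher and 4 lower, and DESeq2 called 10 higher and 3 lower (*Ecrg4* and *Cab39l* among them). The median log2 fold change of the 37 was 1.41 beside 0.00 for all tested genes, and 28 were above 0. Most of the 37 have low counts, where the log2 fold changes of all tested genes were higher. Below an average log2 CPM of 1, 3 of 11 were called higher (20.6% of all tested genes there), and their median was 1.92 beside 1.55. Between 1 and 3, 7 of 18 were called higher (22.8% of all) with a median of 1.61 beside 0.62, and between 3 and 6, 1 of 8 (3.24% of all) with a median of -0.37 beside -0.14. Without Control replicates 1, 2 and 4 in turn the number called higher was 5, 3 and 6, and without Sox9 replicates 1 to 4 it was 7, 9, 5 and 7. With cyclic loess normalisation and limma-trend, which changes the test as well, it was 3.

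Among 16 genes of transport and barrier, 13 were tested and 4 were called higher. *Kcne2*, a potassium channel subunit of the face toward the fluid, had 1, 2 and 0 counts in Control and 11, 9, 16 and 6 counts in those labelled Sox9, with a ratio of 14.1 (4.51 to 71.1) and an edgeR adjusted p of 0.0028. Its log2 fold change of 3.66 was 0.64 with cyclic loess and limma-trend and 4.43 without Control replicate 2. *Slc13a4*, a sulfate transporter, had 20, 4 and 1 counts against 32, 42, 32 and 26, most of the Control counts being in replicate 1, and a log2 fold change of 2.43 (standard error 0.62, edgeR adjusted p 0.0093). *Trpm3*, a cation channel, rose by 1.88 and *Cldn3*, a tight junction protein, by 0.80 on the log2 scale. These calls depended on the libraries and settings, with *Kcne2* called in 5 of the 10 alternatives in which it was tested, *Slc13a4* in 4 of 13, *Trpm3* in 7 of 13 and *Cldn3* in 5 of 14. Of the fits without 1 library, *Slc13a4* was called in that without Control replicate 1 alone, where its log2 fold change was 4.12. A pump subunit and a carrier of fluid secretion did not pass the test, with log2 fold changes of 0.63 for *Atp1b1* and -0.28 for *Slc12a2*. The tight junction gene *Cldn2*, which defines this epithelium, had at most 3 counts in each library.

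Among 19 secreted, surface and other epithelial genes, 14 were tested and 4 were called higher. *Lrp2*, the endocytic receptor megalin, had 28, 25 and 32 Control counts and 72, 97, 96 and 60 counts in those labelled Sox9, a log2 fold change of 1.96 (standard error 0.28, edgeR adjusted p 0.0004). *Calml4* (2.47), *F5*, coagulation factor V (2.25), and *Col9a3*, a collagen chain (1.74), also rose. Other genes of the list had negative log2 fold changes that did not pass the test, such as *Ecrg4* (-1.58, edgeR adjusted p 0.015), a secreted peptide precursor. *Lrp2* was called in each of the 14 alternative settings and left-out libraries, *Calml4* in 9 of 13, *F5* in 8 of 13 and *Col9a3* in 5 of 14.

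Among 16 genes of plexus and hem specification and of cilia, 10 were tested and 3 were called higher. *Bmp4*, a BMP ligand of the dorsal midline, had 5, 7 and 11 counts in Control replicates 1, 2 and 4 and 41, 49, 56 and 45 counts in those labelled Sox9, a log2 fold change of 3.11 (standard error 0.44, edgeR adjusted p 0.00034), and it was called in each of the 13 alternatives in which it was tested. *Msx1*, a target of BMP signals, rose by 2.35 and *Bmp6* by 2.10 on the log2 scale, and they were called in 7 and 3 of the 13 alternatives. Neither was called when any 1 of the Control libraries was left out, with edgeR adjusted p of 0.013 to 0.017 for *Msx1* and 0.023 to 0.030 for *Bmp6*. *Wnt3a*, the ligand that marks the cortical hem, had a log2 fold change of 2.09 and an edgeR adjusted p of 0.015. Of the genes of multiple cilia, *Foxj1* and *Gmnc* had at most 3 counts in each library, *Mcidas* had 5, 4 and 10 counts against 17, 18, 21 and 2 (edgeR adjusted p 0.062), and *Ccno* had 1, 2 and 0 against 6, 2, 2 and 15, with most of its counts in Sox9 replicate 4. Of the epithelial keratins, *Krt18* had at most 3 counts in each library and *Krt8* had 1, 0 and 4 counts against 4, 13, 10 and 1, with overlap.

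**Figure D5:**
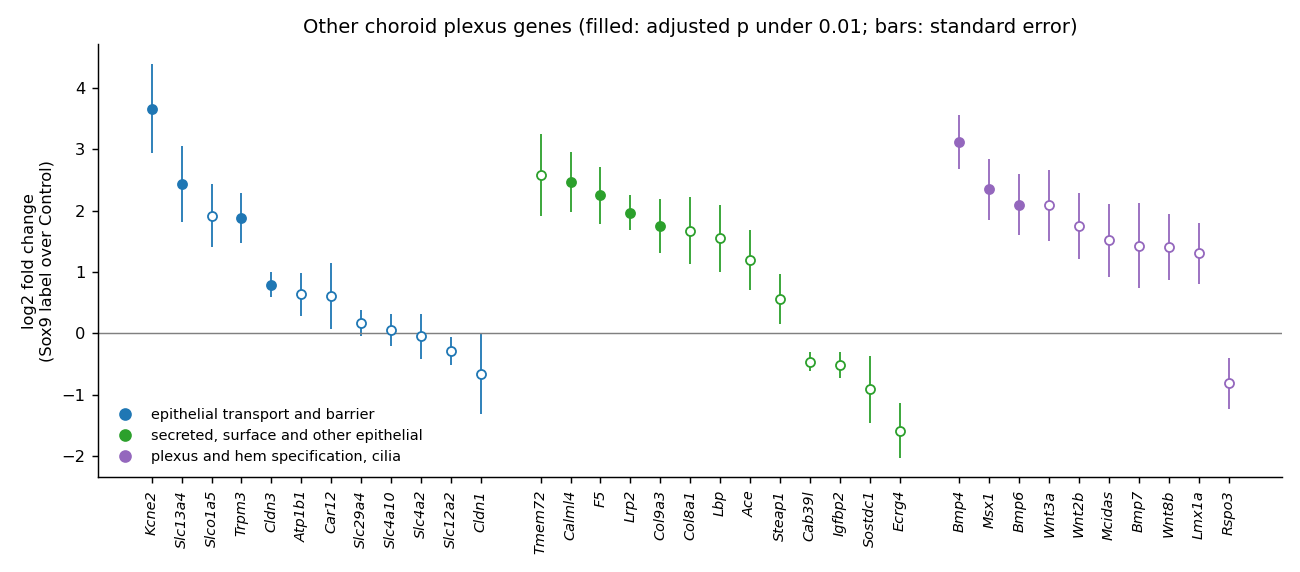
Log2 fold change of the libraries labelled Sox9 over Control (y axis) with its standard error (bars) for 35 of the 37 tested other choroid plexus genes, in 3 lists by colour. Filled points are the 11 genes with an edgeR adjusted p under 0.01, all above 0, and open points the other genes, 8 of them below 0.

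The partners of the 10 genes, that is ligands, receptors, carriers and signalling proteins that act with them, did not share a direction. Of 23, 18 were tested, 2 (11.1%) were called higher and 3 (16.7%) lower, beside 11.3% and 3.43% of all tested genes. *Stat5a*, which signals from the prolactin receptor, had 13, 18 and 27 counts in Control and 134, 122, 158 and 63 counts in those labelled Sox9, a log2 fold change of 3.04 (standard error 0.33, edgeR adjusted p 5.6e-05). *Socs2*, a target of STAT5 signals that dampens them, had 574, 443 and 401 counts against 1117, 1164, 865 and 741, a log2 fold change of 1.52 (standard error 0.19, edgeR adjusted p 0.00015). *Cish*, another target of STAT5 signals, had 119, 144 and 114 counts against 62, 115, 81 and 47, a log2 fold change of -0.30 (edgeR adjusted p 0.289) with each library labelled Sox9 below the Control libraries in CPM. *Prl*, the ligand prolactin, had 1 to 7 counts per library and was not tested. Both *Stat5a* and *Socs2* were called in each of the 14 alternatives.

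*Lpar1*, a receptor for the lysophosphatidic acid that autotaxin makes, moved the other way. It had 260, 517 and 408 Control counts and 104, 110, 85 and 37 counts in those labelled Sox9, a log2 fold change of -1.81 (standard error 0.24, edgeR adjusted p 0.00022), and was called in each of the 14 alternatives. *Fgfr1*, the receptor that klotho joins, fell by 0.73 on the log2 scale (edgeR adjusted p 0.00092) and was not called with cyclic loess (limma adjusted p 0.022). Other folate carriers did not pass the test. The log2 fold change was -0.07 for *Slc19a1*, whose groups overlapped, and -0.23 for *Slc46a1* (edgeR adjusted p 0.312), whose libraries labelled Sox9 all lay below the Control libraries in CPM. *Rbp4*, which transthyretin binds in blood, had 0, 2 and 2 counts against 0, 3, 5 and 5 and was not tested.

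Of 27 paralogues, that is other members of the gene families, 21 were tested, 5 (23.8%) were called higher and 2 (9.52%) lower. Of all tested genes, 11.3% were called higher and 3.43% lower. The share called higher was larger at low levels, with 20.6% of all tested genes below an average log2 CPM of 1 and 22.8% between 1 and 3. Within the potassium channel family of *Kcnj13*, *Kcnj16* had 2, 1 and 4 counts against 22, 23, 18 and 12, a log2 fold change of 3.36 (edgeR adjusted p 0.0012). The chloride intracellular channel family moved in both directions: *Clic5* had 1, 2 and 1 counts against 14, 19, 10 and 4, a log2 fold change of 3.39 (edgeR adjusted p 0.0021), whereas the far more abundant *Clic1* and *Clic4* fell by 0.75 and 0.72. *Ghr*, the growth hormone receptor and a relative of *Prlr*, rose by 1.42, *Klb*, the relative of klotho, by 2.08 and *Enpp6*, a relative of *Enpp2* known from the oligodendrocyte lineage, by 1.47. With cyclic loess normalisation and limma-trend none of these 7 was called (limma adjusted p 0.027 to 0.671). In that setting the log2 fold change was 1.24 for *Kcnj16*, 0.55 for *Clic5* and 0.33 for *Klb*. Of the fits without 1 library, *Kcnj16* was called in each. *Clic5* was not called without Control replicate 1 (edgeR adjusted p 0.012) or 4 (0.0105) and was not tested without Sox9 replicate 1, 2 or 3, nor was *Clic1* called without Control replicate 4 (0.011). *Ghr*, *Klb*, *Enpp6* and *Clic4* were each lost without any of several libraries, with edgeR adjusted p reaching 0.023, 0.034, 0.037 and 0.040. *Otx1*, the neocortical relative of *Otx2*, had a log2 fold change of -0.10 and an edgeR adjusted p of 0.761.

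Summed levels of markers of other cells also moved with the groups, and their part in the values above was not tested. The summed CPM of 10 neocortical progenitor and neuron genes was 4753 to 5576 in the Control libraries and 3681 to 4179 in those labelled Sox9, that is far above the 10 choroid plexus genes in each library. Most of this sum was *Neurod6*, a gene of cortical neurons, which had 5025, 4110 and 4323 CPM in Control and 3472, 3723, 3477 and 3297 CPM in Sox9 replicates 1 to 4, a log2 fold change of -0.36 that was not called (edgeR adjusted p 0.021). Without it the sum was 527 to 643 CPM against 384 to 456 CPM, and of the 10 genes only *Pax6* (log2 fold change -1.15) and *Eomes* were called lower and 0 higher. The summed CPM was higher without overlap in the libraries labelled Sox9 for 7 cortical hem and Cajal-Retzius genes (6.78 to 13.1 against 15.0 to 26.3) and for 8 endothelial genes (6.02 to 15.8 against 21.6 to 49.4). The same held for 9 mural and meningeal genes (9.27 to 9.38 against 14.2 to 26) and 8 genes of ventral interneurons (4.52 to 5.35 against 8.16 to 13.2). By single genes, 1 of 4 tested hem and Cajal-Retzius genes, 2 of 7 endothelial, 1 of 7 mural and meningeal and 0 of 3 ventral interneuron genes were called higher, beside 11.3% of all tested genes, and 0 were called lower. For 8 microglial genes (10.4 to 38.4 against 13.8 to 66.8) and 7 erythroid genes (2.10 to 24.7 against 14.6 to 94.8) the ranges overlapped, and 1 of 8 and 1 of 6 tested genes were called higher. *Enpp2* is also expressed by cells of the oligodendrocyte lineage, and a list of 7 genes of their precursors, chosen after the values were seen, was added for this reason. Their summed CPM was 1.24 to 2.52 in the Control libraries and 14.2 to 43.7 in those labelled Sox9, and 5 of the 6 that were tested were called higher. Of these, *Pdgfra* had 3, 1 and 2 counts against 74, 52, 28 and 34, and *Bcas1* had 4, 11 and 12 counts against 116, 110, 40 and 35. Like *Enpp2* and *Ttr*, both were highest in Sox9 replicate 1 by CPM.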

How the data were processed

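RNA-Seq libraries of sorted High RFP cells were made by the authors from poly-dT primed, PCR-amplified cDNA without molecular identifiers. Reads were merged over lanes, trimmed with cutadapt and aligned to mm10 with STAR (2.5.2b in the submitters' processing notes, beside bcl2fastq 2.17.1.14). The deposited table of raw counts by Ensembl identifier was used unchanged. How reads were assigned to genes (program, strand, introns) is not given in the sources used here. The authors also deposited FPKM values. These served only to recover the length behind them, which lay within 2% of the whole gene span for 8 of the 10 genes, so levels per exonic kilobase were computed here from the counts and the exons of GENCODE vM21 (GRCm38). That annotation gave symbols for 36345 of the 38124 genes. All sample columns were used, groups follow the titles, and the descriptions number the Control libraries differently from the titles. The range of depth in each group is in the report, and a count of 10 has a wide counting interval.

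The test across all genes was run in R 4.3.3 by edgeR 4.0.16 (TMM, filterByExpr, two-sided quasi-likelihood test, Benjamini-Hochberg over the 16522 genes tested, called at an adjusted p under 0.01). Standard errors were derived from each log2 fold change and its F statistic. The procedure was tested on simulated data. The 10 genes and all lists were chosen with earlier results of these data known. Besides the 10 genes, *Sox9* and the 5 genes most like their sum, the text names from each list of plexus genes, partners and paralogues the 4 genes with the smallest p and every gene called (some genes of these lists are counted but not reported here), and from each list of other cells the 2 most abundant where they are needed. *Atp1b1*, *Slc12a2*, *Ecrg4*, *Cab39l*, *Slc19a1*, *Slc46a1*, *Cish*, *Mcidas*, *Ccno*, *Krt8*, *Eomes*, *Olig2*, *Otx1*, *Prl*, *Rbp4* and the genes with at most 3 counts were named after their values were seen. Alternatives were DESeq2 1.42.0, its size factors, cyclic loess with limma-trend (limma 3.58.1), other filters and thresholds, the replicate number as a block, the whole gene span as length, and leaving out each library. Counting intervals are exact (Poisson for CPM, from the Clopper-Pearson interval of the share for ratios) at 95%. Summaries were computed in Python 3.11.15. Promoters came from RefSeq.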

Additional observations from a re-analysis of the deposited data

Results flagged for a closer look

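Among 64 values checked in the 4 libraries labelled Sox9, 5 had 1 library far from the other 3 by Dixon's criterion, which by chance marks about 1 in 20 groups. The summed CPM of the genes of plexus and hem specification and cilia was highest in Sox9 replicate 3, at 61.6, the library in which *Enpp2* and *Ttr* were lowest of the 4. *Rspo3* alone made up 30.3 CPM of it there, and without this gene the sum was 31.3 CPM in replicate 3 and 31.2 CPM in replicate 1. Markers of other cells also stood apart in that library, *Pecam1* of endothelial cells at 8.16 CPM and *Calb2* of Cajal-Retzius cells at 6.26 CPM. *P2ry12* of microglia was highest in Sox9 replicate 1, at 13.9 CPM. *Rgs5* of mural cells was lowest in Sox9 replicate 2, at 4.72 CPM. None of the 10 choroid plexus genes was set apart in this way.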

How the results depend on the processing

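The 7 tested choroid plexus genes had positive log2 fold changes in every alternative in which they were tested. Their median of 2.25 was 1.15 with cyclic loess and 2.87 with at least 10 counts in every library, which left 2 of the genes, and 2.15 to 3.27 when single libraries were left out, where the fits without a Control library also tested *Clic6* and *Otx2*. For the same 7 genes, an alternative chosen after seeing the data, it was 2.15 to 2.73 (2.63 and 2.73 without Control replicates 1 and 4). The number of other choroid plexus genes called higher (11) was 3 with cyclic loess, 2 with at least 10 counts, 17 at an adjusted p under 0.05, and 3 to 9 without single libraries. Those called lower (0) were 3 with DESeq2, 2 with its size factors in edgeR, 1 with cyclic loess, 3 without a filter and 3 at an adjusted p under 0.05. Over all genes, the number called higher (1862) was 363 with cyclic loess, 638 with at least 10 counts, 3616 at an adjusted p under 0.05 and 827 to 1590 without single libraries. The number called lower (567) was 1421 with DESeq2, 951 with its size factors, 284 with cyclic loess, 1452 without a filter, 204 with at least 10 counts, 1787 at an adjusted p under 0.05 and 208 to 475 without single libraries. The median of all genes was 0.54 with DESeq2 and 0.51 without a filter, against 0.00. The cause of these shifts was not tested.

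The deviations of libraries with the same replicate number correlated at -0.04, 0.12 and 0.00 by the titles and -0.04, 0.12 and 0.02 by the descriptions. These few values were not set beside those of libraries with different numbers, so they do not settle whether the numbers pair the libraries. With the replicate block, genes called higher were 400 by the titles and 1034 by the descriptions, genes called lower 218 and 353, and other choroid plexus genes called higher 3 and 2, and *Kcnj16* was not called by the titles (edgeR adjusted p 0.011). *Calb2*, which was not called, changed sign to -1.09 with cyclic loess, to -0.78 and -0.0176 with the replicate block and ranged from -0.83 to 0.64 without single libraries. *Lhx6*, not called, changed sign to -0.54 with cyclic loess, and *P2ry12*, not called, ranged from -1.27 to 0.18 without single libraries. The low counts of *Aqp1*, *Otx2* and *Clic6* limit what can be said of them at this depth.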
